A study of Schmidtea mediterranea with 96 samples.

Results

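X2 and Xins are cell populations of the planarian *Schmidtea mediterranea* that were separated by flow cytometry on Hoechst, a dye that binds DNA. The comparison described here sets the 3 X2 libraries against the 3 Xins libraries, 6 of 96 in the series, over all 36035 transcripts of the deposited table. The rule that chose them is the sorted population and no measured value. Both populations came from wild-type, untreated worms that had been starved for at least 7 days, and each library was made from polyA RNA of 100000 sorted cells. An asexual strain (CIW4) and a sexual strain (S2F8) were kept, and the labels do not say which strain gave which library. The 3 libraries of X1, the sort gate of cells with replicated DNA, have the same genotype, treatment and preparation and are used for reference. Other libraries of the series serve to follow the called transcripts. They are 3 of untreated whole animals, 3 of whole animals after 10000 rads of lethal irradiation (labelled as 1 day), 12 of fixed cells sorted by PIWI-1 level (4 each high, low and negative), and 68 of small amputated fragments collected at 17 times of regeneration. Each whole-animal library pools 5 worms.

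Planarians replace and regenerate all their tissues from neoblasts, dividing stem cells scattered through the body. X1 cells are mostly neoblasts with replicated DNA, X2 holds neoblasts with unreplicated DNA together with their recent, no longer dividing progeny, and Xins holds the differentiated cells that survive irradiation. PIWI-1, an Argonaute-family protein bound to small RNAs, is made in neoblasts and lingers in their progeny, and lethal irradiation removes neoblasts before other cells. X2 against Xins therefore asks what distinguishes a gate with small neoblasts and progeny from a gate of differentiated cells of about the same DNA content. No table pairing the transcript identifiers with gene names is used here, so transcripts are given by identifier, no role is stated for them, and the marker genes that define each cell type could not be looked up by name.

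Levels are given in FPKM, which divides a transcript's reads by its length in kb and by the M reads of its library. Depth recovered from the steps of the FPKM values was 33.9 to 35.8 M reads in X2, 34.4 to 35.99 M in Xins and 34.9 to 35.9 M in X1. At 1 FPKM or more, an X2 library held 12737 ± 169 (SD, n = 3) transcripts and an Xins library 15285 ± 214. The X2 libraries correlated with each other at a Pearson r of 0.991 to 0.994 across 15347 transcripts. Xins replicate 1 stood apart, with an r of 0.971 and 0.975 with the other Xins libraries against 0.993 between those. Whether replicates came from separate animals or sorts is not stated in the labels, so every p-value here measures the spread between libraries, which may be technical. The most abundant transcript, SMED30032887, named because its level was seen to be extreme, took 33.7% ± 0.923 of X2 reads, 27.6% ± 1.23 of Xins reads and 39.3% ± 2.04 of X1 reads (SD, n = 3). Its log2 difference between X2 and Xins was 0.29 ± 0.07 (SE, limma, adjusted p = 0.00395) and below the 2-fold needed for a call.

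Most of the called differences between X2 and Xins were transcripts lower in X2. To be called, a transcript had to differ 2-fold or more (a log2 difference of 1) with an adjusted p below 0.05 in limma. Differences are on log2(FPKM + 1), a scale that understates the fold of low transcripts. By that rule 259 transcripts were higher in X2, 1.69% of the 15347 tested, and 2789 were lower, 18.2%. On the deposited scaling the lower set also differed by more: its median size was a log2 difference of 1.53, against 1.25 for the higher set. These sizes are measured from 0, while the median over all tested transcripts was -0.27. They were not compared under another scaling. Among lower transcripts 867 differed by at least 2 on the log2 scale, 330 by at least 3 and 69 by at least 4. Among higher transcripts these numbers were 16, 2 and 0. The 3 X2 libraries did not overlap the 3 Xins libraries for 249 of the higher and 2786 of the lower transcripts, where 63.7% of all tested transcripts did not overlap. In bulk libraries, fewer cells of a type and less RNA per cell cannot be told apart.

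The median log2 difference over all tested transcripts was -0.27, so the deposited scaling places most transcripts below 0. Median-ratio scaling brought that median to 0.06 and gave 801 higher against 1759 lower. With totals that leave out SMED30032887, an alternative chosen after seeing its share, it was 401 higher and 2799 lower. The lower transcripts outnumbered the higher ones under each of these scalings, by a smaller ratio where the median was moved to near 0.

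Few differences were of the on and off kind. No transcript was at 0 in all 3 Xins libraries and at 1 FPKM or more in all 3 X2 libraries, and 2 transcripts showed the reverse, the higher of them with a mean of 1.78 FPKM in Xins. At a boundary of 1 FPKM, 92 transcripts were at or above it in all X2 libraries and below it in all Xins libraries. The reverse held for 1627 transcripts, and 11410 were at or above 1 FPKM in all 6 libraries. Calls also lay at different levels. Of 5964 transcripts with a mean of 1 to 5 FPKM, 66 were higher and 1347 lower in X2, while among the 131 with a mean of 1000 or more, 4 were higher and 4 lower. The X2-higher transcripts were short, with a median length of 577 bases (recovered from the FPKM steps) against 1264 for the X2-lower and 1190 for all tested. In reads, the higher set made up 1.74% ± 0.175 of X2 and 0.731% ± 0.0244 of Xins libraries. The lower set made up 1.92% ± 0.0443 of X2 and 11.5% ± 2.24 of Xins libraries (SD, n = 3), of which Xins replicate 1 was highest at 14.1%.

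**Figure D1:**
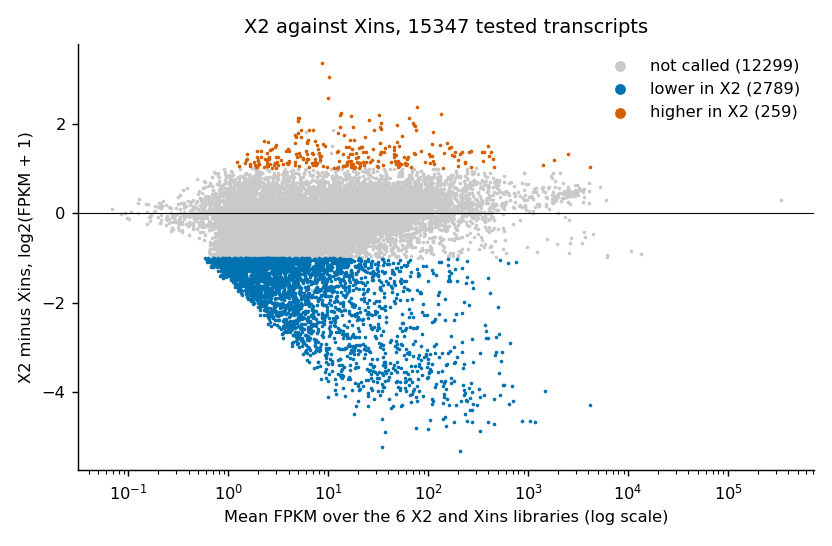
Log2 difference between X2 and Xins (vertical, log2(FPKM + 1) units) against mean FPKM over the 6 libraries (horizontal, log scale), 1 point per tested transcript. The 2789 transcripts lower in X2 reach a difference of -5.31, and the 259 higher in X2 reach 3.34.

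The transcript with the largest rise in X2 was SMED30023125 (305 bases). It stood at 13.5, 20.4 and 15.7 FPKM in the X2 libraries and at 0.547, 1.33 and 0.373 in the Xins libraries, so X2 was far above Xins in every library. The log2 difference was 3.34 ± 0.22 (SE, limma, adjusted p = 6.25e-07). X1 libraries held it at 8.83 to 12.1 FPKM, and its difference of 0.57 ± 0.22 between X2 and X1 did not reach a call. In the PIWI-1 sorts it was at 2.94 to 4.98 FPKM in high, 5.67 to 7.12 in low and 0 to 1.58 in negative libraries. Low exceeded negative by 1.95 ± 0.35 (limma, adjusted p = 0.000591). Untreated whole animals had 0.412 to 0.872 FPKM and all 3 irradiated libraries listed it at 0, below the level needed for a test there.

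SMED30013472 (520 bases) marked X2 against both neighbours. Its values were 18.8, 20.0 and 17.8 FPKM in X2, 1.55, 1.62 and 1.10 in Xins, and 3.42, 2.43 and 3.26 in X1. The X2 libraries lay above all others, with a log2 difference of 3.04 ± 0.15 from Xins (limma, adjusted p = 1.11e-07) and 2.30 ± 0.15 from X1 (adjusted p = 4.38e-07). Among PIWI-1 sorts it was highest in the low population, at 4.82 to 8.10 FPKM against 1.30 to 3.09 in high and 1.49 to 2.60 in negative libraries. It exceeded negative by 1.12 ± 0.33 and high by 1.21 ± 0.33 in limma (adjusted p = 0.0142 and 0.0263). Whole animals held about the same level untreated (1.98 to 2.56 FPKM) and irradiated (1.94 to 2.44), a log2 difference of -0.06 ± 0.10 (limma, adjusted p = 0.711).

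SMED30012180 (182 bases) had the largest fall. It measured 9.07, 7.25 and 11.4 FPKM in X2 against 537, 351 and 337 in Xins, a log2 difference of -5.31 ± 0.22 (limma, adjusted p = 3.78e-08). X1 held less still, 0 to 0.459 FPKM, so X2 lay between the others and was higher than X1 by 3.02 ± 0.22. PIWI-1 negative cells carried 162 to 738 FPKM, far above the 1.94 to 34.7 of low and the 0 to 3.10 of high libraries. Untreated and irradiated whole animals overlapped, at 31.8 to 39.0 and 33.0 to 44.3 FPKM.

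SMED30034460 (351 bases) was near the detection boundary in X2, at 0.336, 1.92 and 0.636 FPKM, and at 73.2, 67.8 and 64.3 in Xins. The log2 difference was -5.22 ± 0.25 (limma, adjusted p = 8.24e-08), and X1 libraries, at 0.0805 to 0.408 FPKM, were not called apart from X2. In regenerating fragments it was at 0.244 ± 0.105 FPKM (SD, n = 4) at 0 hr and 0.0443 ± 0.0886 at 48 hr. From 4 days on it rose, to 5.93 ± 0.935 at 4 days and 27.96 ± 3.36 at 14 days, a log2 difference from 0 hr of 4.54 ± 0.24 (limma, adjusted p = 4.36e-23). SMED30012180 fell in fragments, from 40.0 ± 5.53 FPKM at 0 hr to 10.3 ± 1.24 at 6 days (log2 difference -1.86 ± 0.18, limma, adjusted p = 3.76e-13). It was called lower at 24 hr, at 72 hr and from 4 to 7 days, and was not called at 14 days, when it stood at 20.6 ± 2.09 FPKM with a log2 difference of -0.92 ± 0.18.

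**Figure D2:**
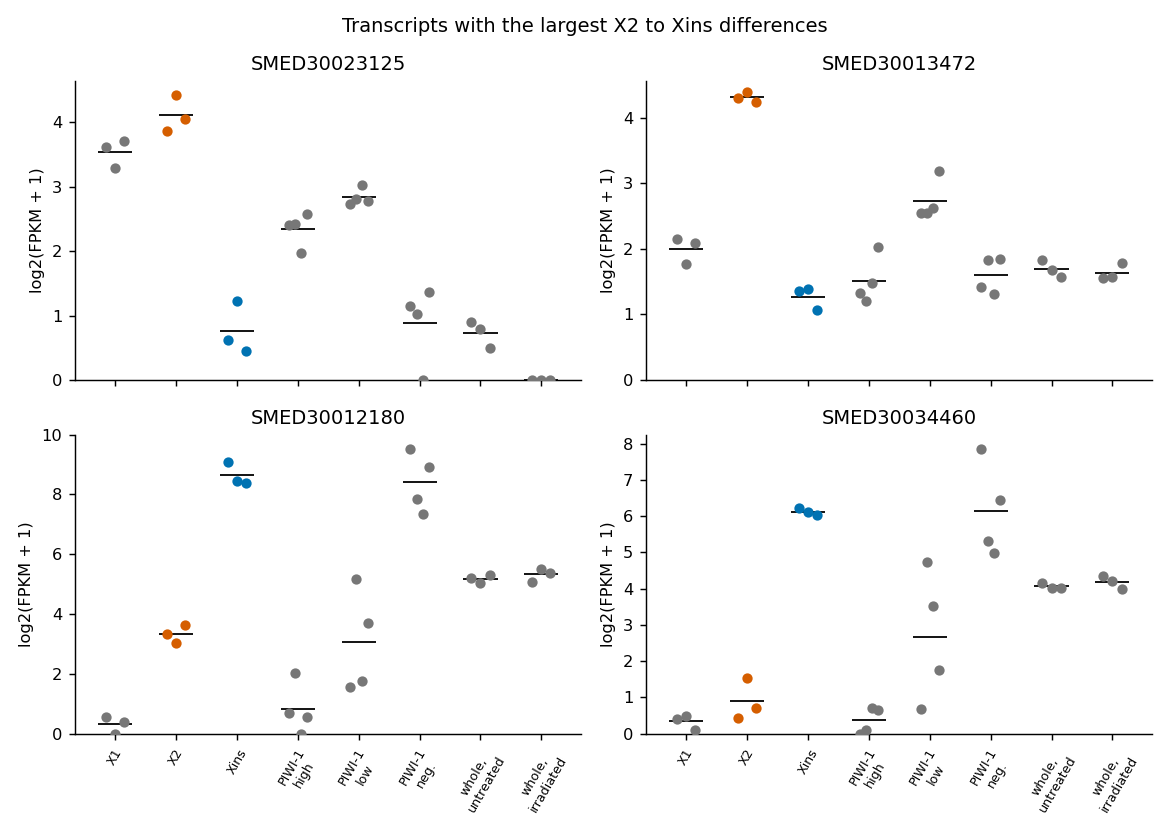
Levels of the 4 transcripts with the largest differences, as log2(FPKM + 1), in each library of the X sorts, PIWI-1 sorts and whole animals; points are libraries and bars are group means. SMED30023125 and SMED30013472 are high in X2 (orange) and low in Xins (blue), and SMED30012180 and SMED30034460 the reverse.

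The level in X1 divides the 259 X2-higher transcripts into sets, which are described separately. Of these, 163 were also called higher than X1, so that X2 was the highest of the 3 gates, 77 were not called against X1, and 19 were lower than X1. X2 shares its libraries between the comparisons with Xins and with X1, and of all tested transcripts 19.2% were called higher and 5.39% lower in X2 than in X1. The median FPKM over the 163 was 33.2 ± 3.55 in X2, 12.9 ± 1.32 in Xins and 5.22 ± 0.344 in X1 libraries. The remaining 96, higher than Xins but not called higher than X1, had a median of 8.57 ± 0.418 FPKM in X2, 3.04 ± 0.316 in Xins and 12.3 ± 0.878 in X1 (SD, n = 3). These levels describe the sets, because they chose the members. With median-ratio scaling the sets held 249 and 552 transcripts.

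The 163 transcripts highest in X2 were far more abundant in intact animals than in any sorted gate. Their median was 189, 203 and 210 FPKM in the untreated whole-animal libraries. Single transcripts had a median ratio of untreated animals to X2 of 4.87, where all tested transcripts had 1.89. The excess over X2 was not particular to the 163. The 2789 X2-lower transcripts, chosen for a lower level in X2, had a median ratio of 7.89. For 2663 of those 2789 all untreated libraries lay above all X2 libraries. In 133 of the 163 all untreated libraries lay above all X2 libraries, against 59.2% of all tested transcripts. They took 5.98% ± 0.259 of the reads of untreated animals, 0.949% ± 0.175 of X2, 0.361% ± 0.0423 of Xins and 0.161% ± 0.0137 of X1 reads (SD, n = 3), and 107 of them stood at 100 FPKM or more in untreated animals. RNA came from intact worms on one side and from sorted cells on the other, so preparation and cell make-up cannot be told apart in these ratios.

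After irradiation the 163 stayed abundant in whole animals. Their median was 226, 237 and 229 FPKM in the irradiated libraries, slightly above the untreated ones without overlap. Of 153 members tested, 2 were called higher (1.31%) and 3 lower (1.96%), where 0.168% and 1.74% of all transcripts tested in whole animals were called. The median log2 difference was 0.23 over these members and -0.02 over all transcripts.

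In the PIWI-1 sorts the 163 were lowest in the PIWI-1 high cells. Their median FPKM was 1.80 to 2.48 in the 4 high libraries, 8.35 to 18.8 in low and 9.54 to 22.3 in negative libraries, so that high lay below and the other populations overlapped. Against negative, 97 of 156 tested members were lower in high cells and 6 higher, where 27.6% and 19.7% of all tested transcripts were. Against low cells, 84 were lower in high cells and 0 higher in limma, also at an unadjusted p under 0.05 (0 members), beside 7.2% and 2.39% of all. Low against negative was divided, with 11 members higher (7.05%) and 26 lower (16.7%), beside 13.8% and 18.9% of all transcripts. With the replicate number of the labels as a block, these became 25 higher and 41 lower. Single libraries moved the same counts: 25 were higher without PIWI-1 low replicate 2, 19 were higher without PIWI-1 negative replicate 2, and 44 were lower without PIWI-1 negative replicate 3.

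**Figure D3:**
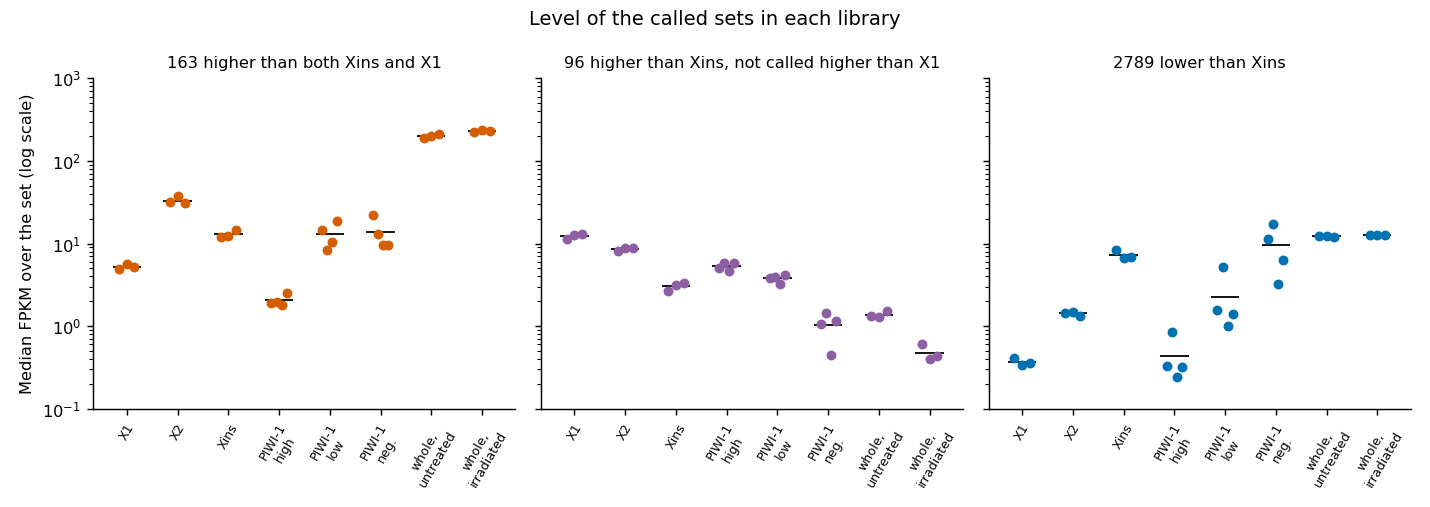
Median FPKM (log scale) over the 163, 96 and 2789 called transcripts in each library; points are libraries and bars are group means. The 163 reach about 200 FPKM in whole animals, the 96 fall from 1.38 to 0.477 FPKM after irradiation, and the 2789 are lowest in X1 and PIWI-1 high cells.

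In amputated fragments the 163 fell over the first days and then returned towards their starting level. Their median level was 123 ± 13.99 FPKM at 0 hr, 35.3 ± 24.9 at 24 hr, 20.4 ± 8.66 at 48 hr and 7.81 ± 4.30 at 4 days. It was back at 35.4 ± 11.8 by 6 days, 87.6 ± 15.4 by 10 days and 91.7 ± 11.7 by 14 days (SD, n = 4 libraries per time). Libraries of the same time differed widely at many times, early and late. The range was 24.4 to 152 FPKM at 9 hr, 2.13 to 12.4 at 4 days and 8.33 to 39.7 at 5 days, when the level was 22.5 ± 16.4. Of 161 members tested against 0 hr, 68 were lower and 7 higher at 24 hr, where 1.37% and 0.868% of all 24546 tested transcripts were. At 48 hr 114 were lower and 12 higher (2.63% and 2.44% of all), and at 4 days 112 were lower and 5 higher (2.61% and 4.4% of all). The median log2 difference at 4 days was -3.35, against 0.19 over all transcripts. At 14 days 43 members were still lower (1.41% of all) and 21 were higher (6.67% of all). Over the course, 124 of the 161 were called lower at 1 time or more, where 7.05% of the transcripts tested in both the X sorts and the fragments were.

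By the rule for named transcripts, the X2-higher member with the deepest loss was SMED30010228 (814 bases). It stood at 86.6, 188 and 111 FPKM in X2, 15.2, 21.6 and 35.5 in Xins and 6.29, 16.1 and 8.12 in X1, so X2 exceeded every library of the other gates. X2 was higher than Xins by 2.37 ± 0.38 (limma, adjusted p = 0.00031). Untreated animals carried 1042 to 1151 FPKM and irradiated ones 1236 to 1338. Fragments held 571 ± 122 FPKM at 0 hr, 88.8 ± 142 at 24 hr, 5.21 ± 6.71 at 4 days and 572 ± 181 at 14 days (SD, n = 4). The fall at 4 days was -7.33 ± 1.16 on the log2 scale (limma, adjusted p = 3.39e-07), and at 14 days the difference from 0 hr was -0.03 ± 1.16. No PIWI-1 comparison gave a call for it in the unpaired fit. Its libraries ran from 5.07 to 84.1 FPKM in low and from 1.37 to 32.5 in negative cells. Low exceeded negative by 2.24 ± 1.02 (limma, adjusted p = 0.106).

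**Figure D4:**
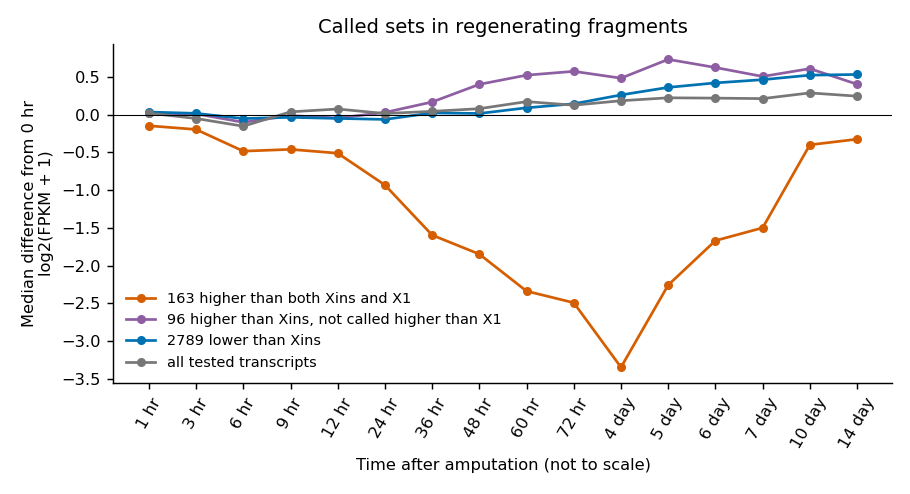
Median log2 difference from 0 hr (vertical, log2(FPKM + 1) units) at each of 16 later times (horizontal, not to scale) for the called sets and for all tested transcripts; lines join medians over transcripts. The 163 highest in X2 reach -3.35 at 4 days and -0.32 at 14 days, while the other called sets stay between -0.10 and 0.73.

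The 96 X2-higher transcripts that were not higher than X1 were low in whole animals. Whole animals held less of them than X2 did, with a median of 1.31, 1.28 and 1.54 FPKM in the untreated libraries, and for 91 of the 96 all untreated libraries lay below all X2 libraries, where 31.6% of all tested transcripts did. After irradiation the median was 0.605, 0.397 and 0.431 FPKM, below every untreated library. Only 48 of the 96 were high enough in whole animals to be tested. Of these 21 fell and 0 rose in limma (2 were higher at an unadjusted p under 0.05), beside 1.74% lower and 0.168% higher of all transcripts. Untreated libraries held 51 to 55 of the 96 at 1 FPKM or more, and irradiated libraries 34 to 35. Members could thus enter the test through the untreated libraries alone, which favours falls over rises among those tested. The median over these 48 was -0.86 on the log2 scale. In reads the set made up 0.166% ± 0.00448 of untreated and 0.0705% ± 0.00329 of irradiated libraries (SD, n = 3).

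Cells with PIWI-1 carried more of the 96 than cells without it. Their median was 4.60 to 5.83 FPKM in high, 3.22 to 4.15 in low and 0.449 to 1.43 in negative libraries, with no overlap between the populations. Against negative cells, 61 of 90 tested members were higher in PIWI-1 high and 50 in PIWI-1 low cells, beside 19.7% and 13.8% of all transcripts. In limma 0 were lower in either comparison (1 and 0 at an unadjusted p under 0.05), and 1 was lower in each with the replicate number as a block. Between high and low cells 8 were higher and 0 lower in limma (1 lower at an unadjusted p under 0.05), a count that ran from 1 to 11 higher as single libraries were left out and stood at 21 with median-ratio scaling. Of all transcripts 2.39% were higher in that comparison. For the 163 the same comparison gave 0 higher and 84 lower.

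In fragments the 96 were low throughout, at 1.00 ± 0.142 FPKM at 0 hr, 1.93 ± 0.0796 at 5 days, 1.98 ± 0.158 at 10 days and 1.61 ± 0.166 at 14 days (SD, n = 4). At 5 days 23 of 83 tested members were higher than at 0 hr, beside 5.64% of all transcripts, and 3 were lower, beside 1.77%. At 4 days 19 were higher and 3 lower, beside 4.4% and 2.61% of all transcripts. The median difference at 5 days was 0.73 on the log2 scale, against 0.22 over all transcripts.

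The X2-higher transcript with the largest fall after irradiation was SMED30019803 (729 bases), a very abundant member of the 96. It measured 2438, 2602 and 2411 FPKM in X2, 821, 1248 and 1295 in Xins and 6015 to 6954 in X1, so the order X1, X2, Xins held in every library. X2 exceeded Xins by 1.17 ± 0.15 (limma, adjusted p = 5.31e-05) and lay below X1 by 1.38 ± 0.15, as a log2 difference of -1.38 between X2 and X1. Untreated animals held 606 to 670 FPKM and irradiated animals 86.2 to 95.4, a log2 difference of -2.80 ± 0.06 (limma, adjusted p = 9.44e-07). In the PIWI-1 sorts it ran from 2154 to 4539 FPKM in high through 895 to 2091 in low to 58.5 to 341 in negative libraries. In fragments it was higher than at 0 hr by 1.51 ± 0.08 at 72 hr (limma, adjusted p = 2.95e-22).

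By mean FPKM, the 2789 X2-lower transcripts were in most cases lower still in X1. The X2 mean lay between those of X1 and Xins for 2550 of them and was the lowest of the 3 for 239. Over all 15347 tested transcripts these numbers were 10443 and 2377. The set was chosen with X2 below Xins, so X2 could not be the highest. Against X1, 877 were called higher in X2, 21 lower and 1891 neither way, beside 19.2% higher and 5.39% lower of all tested transcripts. Their median was 1.44, 1.499 and 1.33 FPKM in X2, 8.41, 6.76 and 6.86 in Xins and 0.336 to 0.409 in X1. Whole animals had 12.0 to 12.3 FPKM untreated and 12.5 to 12.6 irradiated, and of 2726 members tested after irradiation 5 were higher (0.183%) and 2 lower (0.0734%), beside 0.168% and 1.74% of all transcripts.

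The X2-lower transcripts had their highest mean level among the PIWI-1 sorts in negative cells. The median was 3.22 to 17.3 FPKM in negative libraries, 1.00 to 5.13 in low and 0.244 to 0.858 in high libraries, with low and negative libraries overlapping. Within each replicate number negative lay above low. For replicates 1 to 4 in order, the values were 11.4 against 1.56, 17.3 against 5.13, 3.22 against 1.00 and 6.30 against 1.39 FPKM. Against negative cells, 1907 of 2472 tested members were lower and 52 higher in PIWI-1 high cells, the latter 33 without PIWI-1 high replicate 2. In PIWI-1 low cells 1512 were lower and 154 higher. High against low gave 503 lower and 0 higher in limma (7 higher at an unadjusted p under 0.05), and 950 lower and 3 higher with the replicate number as a block. Over all transcripts the shares lower and higher were 27.6% and 19.7% for high against negative, 18.9% and 13.8% for low against negative, and 7.2% and 2.39% for high against low. The 503 became 283 without PIWI-1 high replicate 1, 317 without PIWI-1 high replicate 3 and 844 with median-ratio scaling. Replicate 2 was the highest library for this set in all 3 PIWI-1 populations, at 0.858, 5.13 and 17.3 FPKM, as it was over all 15347 transcripts, with medians of 6.92, 8.94 and 11.7 FPKM.

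Among the 154 exceptions, the leading transcript by the rule for named transcripts was SMED30024144 (467 bases). It was lower in X2 than in Xins, at 108, 80.0 and 105 FPKM against 1145, 733 and 706, a log2 difference of -3.10 ± 0.18 (limma, adjusted p = 2.28e-07). X1 libraries stood at 4.17 to 4.60 FPKM. Yet PIWI-1 low libraries held 131 to 221 FPKM and high libraries 41.3 to 103, all above the 2.18 to 12.1 of negative cells. The low population exceeded negative by 4.56 ± 0.45 (limma, adjusted p = 1.44e-05). It also fell after irradiation, from 20.1 to 23.6 FPKM in untreated to 4.91 to 7.69 in irradiated libraries, by a log2 difference of -1.72 ± 0.14 (limma, adjusted p = 0.00014). Only 2 of the 2789 were called lower after irradiation, and this was among them.

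At the other end of the same rule stood SMED30011418 (635 bases), with 859.8 to 6261 FPKM in PIWI-1 negative, 15.1 to 281 in low and 0.942 to 16.5 in high libraries. It held 21.5, 17.0 and 15.6 FPKM in X2 and 313, 115 and 104 in Xins, and X2 was lower by a log2 difference of -3.06 ± 0.35 (limma, adjusted p = 3.07e-05). Xins replicate 1 was the highest of the Xins libraries. SMED30017313 (336 bases) was the X2-lower transcript with the largest rise after irradiation, from 10.0 to 11.4 FPKM untreated to 45.1 to 50.2 irradiated (log2 difference 2.05 ± 0.07, limma, adjusted p = 2.86e-06). Its X2 libraries, at 3.07, 1.67 and 2.33 FPKM, lay below its Xins libraries at 6.37, 6.65 and 4.15, by a log2 difference of -1.002 ± 0.23 that only just met the call.

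In fragments the X2-lower set was steady at first and then rose. Its median was 9.12 ± 0.569 FPKM at 0 hr, 9.02 ± 0.337 at 48 hr, 11.3 ± 0.229 at 4 days and 14.3 ± 0.370 at 14 days (SD, n = 4). The median over all transcripts tested in the X sorts rose as well. It was 10.1 ± 0.393 FPKM at 0 hr, 11.3 ± 0.310 at 48 hr, 12.3 ± 0.228 at 4 days and 12.8 ± 0.283 at 14 days. Of 2769 members tested, 302 were higher and 138 lower at 4 days, beside 4.4% and 2.61% of all transcripts, and 722 were higher and 90 lower at 14 days, beside 6.67% and 1.41%. Median-ratio scaling gave 176 higher and 206 lower at 4 days, which turns that balance, and 461 higher and 146 lower at 14 days, which does not. SMED30032042 (396 bases) had the largest rise. It stood at 53.2, 71.7 and 77.9 FPKM in X2 and at 697, 552 and 545 in Xins, with X2 lower by a log2 difference of -3.14 ± 0.22 (limma, adjusted p = 9.32e-07). Fragments at 0 hr held 0.0385 ± 0.0771 FPKM, those at 5 days 44.1 ± 50.6 and those at 14 days 346 ± 50.1 (SD, n = 4), while untreated whole animals held 521 to 555. Between 5 and 14 days its course was uneven, with 58.6 ± 108 FPKM at 6 days, 12.8 ± 15.1 at 7 days and 247 ± 137 at 10 days.

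Lists chosen in other libraries describe how far the gates match their names. The 341 transcripts lowered by irradiation had a median of 8.37, 8.77 and 8.12 FPKM in X2, 4.12, 7.13 and 7.63 in Xins and 24.5 to 27.8 in X1. Of 334 tested, 24 were higher and 2 lower in X2 than in Xins, 7.19% and 0.599% beside 1.69% and 18.2% of all transcripts. In Xins 47 of the 341 stood below 1 FPKM, from where a fall of 1 on log2(FPKM + 1) is not possible. The median log2 difference was 0.22, which is 0.49 above that of all transcripts. Single libraries moved these counts: without Xins replicate 1, 12 were higher and 12 lower and the median was 0.04, without Xins replicate 3, 37 were higher, and without X2 replicate 3, 7 were lower. With median-ratio scaling 87 were higher and 2 lower. The summed level went the other way, 52686 FPKM in X2 and 73963 in Xins, where 5 transcripts made up 70.3% of the Xins sum. Without those 5 it was 24342 in X2 and 21990 in Xins. Transcripts lowered by irradiation were thus detected in the Xins libraries, with medians below those of X2 and further below those of X1.

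The PIWI-1 lists divided the gates in different ways. The 376 transcripts highest in PIWI-1 high cells had medians of 1.28 to 1.52 FPKM in X2 and 0.985 to 1.73 in Xins, which overlapped, against 9.23 to 10.9 in X1. Of 341 tested, 8 (2.35%) were higher and 0 lower in X2 (limma), beside 1.69% and 18.2% of all transcripts. X1 lay above both other gates for 374 of the 376, so members could pass the filter through X1 alone. In Xins 148 of the 376 stood below 1 FPKM, from where a fall of 1 on log2(FPKM + 1) is not possible. The count of lower members is therefore limited by this floor and is not comparable with the share of all transcripts. The counts were 7 higher and 4 lower without Xins replicate 1, and 34 higher with median-ratio scaling. Of the 180 highest in PIWI-1 low cells, 178 were tested, and 4 (2.25%) were higher and 68 (38.2%) lower in X2. Their median was 12.3, 12.8 and 13.8 FPKM in X2 and 26.1, 25.2 and 24.3 in Xins, with 0.685 to 0.99 in X1. The list of 2884 transcripts highest in PIWI-1 negative cells was the most divided between the gates, with 26 (1.12%) higher and 1493 (64.5%) lower in X2 of 2313 tested, and 16 higher without X2 replicate 2. Its median was 0.945 to 1.07 FPKM in X2 and 3.51 to 4.53 in Xins. Of the 33 irradiation-raised transcripts 20 were tested, with 2 (10%) higher and 5 (25%) lower in X2, and 5 higher and 3 lower without Xins replicate 1, which turns that balance. Without X2 replicate 3, 4 were higher.

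**Figure D5:**
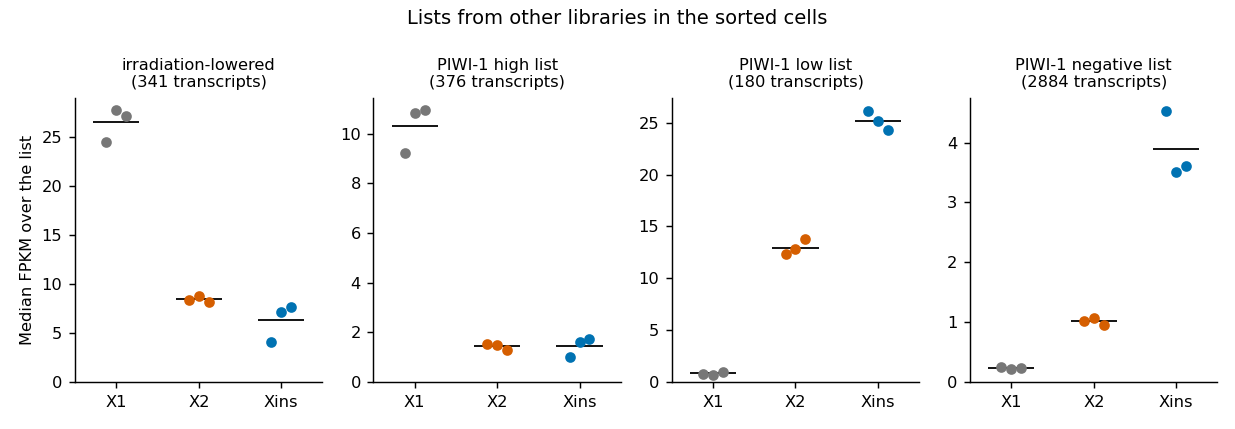
Median FPKM over 4 lists chosen in irradiated animals or PIWI-1 sorts, in each X1, X2 and Xins library; points are libraries and bars are group means. X2 and Xins lie close for the irradiation-lowered and PIWI-1 high lists, and Xins is above X2 for the PIWI-1 low and negative lists.

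Across transcripts, the X2 to Xins difference ran with the PIWI-1 differences. The Pearson r was 0.64 with high minus negative, 0.59 with low minus negative and 0.47 with high minus low (13846 transcripts, no shared libraries), and the Spearman rho was 0.63, 0.61 and 0.46. With irradiated minus untreated animals it was -0.30, with a rho of -0.37 (14169 transcripts). Transcripts are not independent replicates, and X2 against Xins differs in scaling as described above, so these values are descriptions.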

How the data were processed

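The authors deposited FPKM values for 36035 transcripts in 3 tables, with 1 column per library. The submitters' processing notes name Bowtie2 2.2.9 and edgeR, whose roles, with the reference and the counting method, are not given in the sources used here. Libraries of X cells and whole animals were made with a stranded TruSeq kit, per the labels' protocols. Reads shared by near-identical transcripts could not be assessed.

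From the deposited FPKM, log2(FPKM + 1) was fitted with limma 3.58.1 (lmFit, eBayes with trend, two-sided, Benjamini-Hochberg) in R 4.3.3. A transcript was tested with 1 FPKM or more in at least 3 libraries (X1, X2 and Xins, 1 fit of 9 libraries; whole animals, 6 libraries) or at least 4 (PIWI-1, 12; regeneration, 68, each later time against 0 hr). Calls needed a log2 difference of 1 or more and an adjusted p below 0.05. Lists from the PIWI-1 fit are transcripts called higher than both other populations (high, low) or lower in both high and low (negative).

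Library totals and transcript lengths were recovered as whole numbers from the FPKM steps. A length was found for 33871 transcripts, whose values were all whole reads within 0.0001 read and made up at least 99.9997% of the reads of each X library. Tools were Python 3.11.15, pandas 2.3.3 and numpy 2.4.6. The fit was tested on simulated reads, drawn with the same spread setting for all libraries. It called 88 of 100 transcripts changed 4-fold, 27 of 100 changed 2-fold and 0 of 15147 unchanged ones. Changes near the 2-fold boundary were thus mostly missed there.

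Named transcripts are the leading ones by log2 difference among calls without overlap whose higher group averaged 5 FPKM or more. In irradiation, PIWI-1 low against negative and regeneration, the choice was limited to transcripts called in X2 against Xins. The comparison, the sets and the lists were chosen with earlier results of these data known.

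Same-numbered PIWI-1 libraries deviated together (12 pairs, r 0.122 to 0.797), so their numbers appear to pair them, judged from the data. The main PIWI-1 fit ignored this pairing. Counts and p-values for the PIWI-1 sorts are unpaired unless the replicate block is named. Alternatives were a pseudocount of 0.1, other filters, median-ratio scaling, limma voom on recovered reads, a replicate block and leaving out each library. The library with no group was not analysed here.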

Additional observations from a re-analysis of the deposited data

Results flagged for a closer look

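Single libraries lay far from the rest of their group of 4 in 10 of 89 groups of values examined, where chance flags about 1 in 20. SMED30013472 stood at 3.27 FPKM in replicate 5 at 4 days after amputation and at 8.10 in replicate 4 of PIWI-1 low. SMED30023125 stood at 0.859 FPKM in replicate 4 at 24 hr and at 3.12 in replicate 3 at 72 hr. SMED30034460 stood at 0.178 FPKM in replicate 4 at 6 hr, 0.690 in replicate 3 at 24 hr, 0.177 in replicate 5 at 48 hr and 3.36 in replicate 1 at 72 hr. Its group median was 0 FPKM at 6, 24 and 48 hr, so the values flagged at those times lie near the floor. The median over the 2789 transcripts lower in X2 was 0.858 FPKM in replicate 2 of PIWI-1 high and 5.13 in replicate 2 of PIWI-1 low, each far above the other 3 libraries; the median over all tested transcripts was also highest in these libraries, at 6.92 and 8.94 FPKM. The part of these libraries in the results was tested only by leaving each PIWI-1 library, and each library at 0 hr, 4 days and 14 days, out in turn.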

How the results depend on the processing

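The direction of the 4 transcripts with the largest differences and their calls held under all alternatives run. Counts moved by over 1.5 times in the following cases, and elsewhere stayed within it; the cause was not tested. A pseudocount of 0.1 gave 459 transcripts higher in X2 and 241 not higher than X1; its lists had 20 higher and 12 lower (PIWI-1 high), 41 higher (PIWI-1 negative) and 10 lower (irradiation-lowered). In PIWI-1 high minus low it gave 3 of the 96 higher and 1 higher and 1040 lower of the X2-lower transcripts. At 4 days it gave 9 of the 163 and 34 of the 96 higher, and at 14 days 23 of the 96 higher and 2 lower. A filter of 5 FPKM, which tests fewer transcripts, left 1572 lower in X2, 3 of the irradiation-raised and 867 of the PIWI-1 negative list lower.

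Median-ratio scaling gave 801 higher and 1759 lower, of which 249 were higher than X1 and 552 not. Its lists had 87 (irradiation-lowered), 34 (PIWI-1 high), 10 (PIWI-1 low) and 53 (PIWI-1 negative) higher, and 2 irradiation-raised lower. In PIWI-1 high minus low, 21 of the 96 were higher, and 9 X2-lower transcripts were higher and 844 lower. Of the X2-lower transcripts 176 were higher at 4 days, and 461 were higher and 146 lower at 14 days, when 4 of the 96 were higher and 4 lower. Limma voom on recovered reads gave 463 higher, 4137 lower, 229 not higher than X1, 19 higher and 13 lower of the PIWI-1 high list, 46 higher of the PIWI-1 negative and 11 lower of the irradiation-lowered list. Totals without SMED30032887 gave 401 higher, 193 not higher than X1, and 46 and 14 higher of the irradiation-lowered and PIWI-1 high lists.

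Same-numbered X2 and Xins libraries did not deviate together (r -0.0628 to 0.0098). With the replicate block X2 against Xins gave 266 higher and 2794 lower, and 4 irradiation-raised members higher. In the PIWI-1 sorts the block gave 25 higher and 41 lower of the 163 in low minus negative, 1 of the 96 lower in high and in low minus negative and 2 in high minus low, and 3 higher and 950 lower of the X2-lower transcripts in high minus low; it moved no other count that far.

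With each library left out in turn, 225 to 282 transcripts were higher and 2700 to 2940 lower in X2, with 128 to 184 higher than X1 and 77 to 125 not. The irradiation-lowered list ranged from 12 to 37 higher and 2 to 12 lower, the irradiation-raised from 2 to 5 and 3 to 7, the PIWI-1 high from 7 to 12 and 0 to 4, and the PIWI-1 negative from 16 to 36 higher. In the PIWI-1 sorts, 0 to 1 of the 96 were lower in high minus negative and 1 to 11 higher in high minus low; 33 to 61 X2-lower transcripts were higher in high minus negative, and 0 to 2 higher and 283 to 665 lower in high minus low. In low minus negative 9 to 25 of the 163 were higher and 21 to 44 lower. At 14 days 1 to 2 of the 96 were lower. Alternatives for regeneration, X1 libraries and totals without SMED30032887 were chosen after seeing the data. Depth limits statements on transcripts near 1 FPKM.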
